A study of Rattus norvegicus with 27 samples.

Results

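The RT1 complex is the major histocompatibility complex of the rat. The arrays carried 44 probes whose gene name begins with RT1-, out of 41012 probes that are not array controls, and all 44 are described here. They bear 30 gene names. Class I names (RT1-A, -C, -M, -N, -S and -T) covered 32 probes of 23 names, and class II names (RT1-B and -D) covered 11 probes of 6 names. The last probe, RT1-Ke4, is listed in RefSeq as Slc39a7, a zinc transporter gene, and belongs to neither class.

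Class I molecules display peptides from inside the cell to cytotoxic T cells, as a polymorphic heavy chain bound to beta-2-microglobulin. They are made by most nucleated cells, and in the brain mainly by endothelium and microglia, with low levels in many neurons. Class II molecules are pairs of an alpha and a beta chain that display engulfed material to helper T cells, and in the healthy brain they are found mostly on perivascular and meningeal macrophages and some microglia. Both sets of genes are among the most variable between rat strains, and class I genes form families of near-identical copies, so that a probe can read several of them and the gene name of a class I probe is uncertain.

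The 27 arrays came from hippocampus, prefrontal cortex and striatum of 3 sets of male rats killed at 10 weeks of age. Control rats were untreated Wistar rats with a mean blood sugar of 7.64 mmol/l. Goto-Kakizaki rats, a separate inbred strain bred from Wistar stock that is lean and becomes diabetic without treatment, stood as a model of type 2 diabetes, with a mean blood sugar of 13.9 mmol/l. Streptozotocin rats were Wistar rats given 65 mg/kg of that beta-cell toxin intravenously at 6 weeks of age, a model of type 1 diabetes, with a mean blood sugar of 26.34 mmol/l. Each of the 9 groups held 3 arrays, each of RNA pooled from 3 animals, so the spread between arrays is that between pools. Because Goto-Kakizaki rats differ from the controls in strain as well as in diabetes, and no non-diabetic rat of that strain was measured, strain and disease cannot be told apart. For the same reason a difference in the bases under a probe and a difference in transcript amount cannot be told apart in any comparison with Goto-Kakizaki rats. In whole tissue, fewer cells of a type and less RNA per cell cannot be told apart either.

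Levels are log2 signals less the array's own 75th percentile, so that 0 is the level of that percentile and a step of 1 is a doubling. A probe counted as called when its adjusted p in limma, a linear model fitted over all probes with Benjamini-Hochberg adjustment, was below 0.05 and its change was at least 2-fold. The 75th percentile signals lay between 690.3 and 1527 units, and arrays held 67.39% to 75.27% of probes well above background. Summed levels of region markers matched the labelled regions, with striatal neuron genes between 5.74 and 6.80 in striatum against 0.45 to 3.25 elsewhere. The control prefrontal cortex was uneven for these genes, from 1.41 to 3.25. Of the RT1 probes, 29 were well above background on all 27 arrays and 4 on none. A total of 38 entered a test in at least 1 region, and the 6 that did not were both RT1-Ba probes, RT1-DOa, RT1-M2, RT1-T24-2 and 1 of 3 RT1-Db1 probes.

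Several names were read by more than 1 probe, and the results below turn on how those probes differed. The 4 probes named RT1-Aw2 are built on 4 different transcript records and are shown first. Capitals mark the longest run of bases, where it reaches 16 or more, that a probe shared with another RT1 probe. Where a probe does not hold at least 2 open reading frames, only its first 30 bases are given.
RT1-Aw2 A_44_P196401: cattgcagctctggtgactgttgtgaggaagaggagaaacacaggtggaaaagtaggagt
RT1-Aw2 A_44_P313652: gctggggtcatgaaatgaaatgaaatggtt
RT1-Aw2 A_44_P324707: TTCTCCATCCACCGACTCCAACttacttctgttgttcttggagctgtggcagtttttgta
RT1-Aw2 A_44_P390172: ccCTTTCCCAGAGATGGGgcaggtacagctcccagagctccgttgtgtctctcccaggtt
All 3 reading frames of A_44_P313652 hold a stop codon, whereas the other RT1-Aw2 probes hold 2 or 3 open frames. The capitals of the last pair are shared with RT1-CE2.

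The next pairs carry opposite changes under 1 gene name. They are RT1-Bb, the beta chain of the RT1-B class II molecule, and the class I genes RT1-S3 and RT1-M6-2.
RT1-Bb A_44_P500803: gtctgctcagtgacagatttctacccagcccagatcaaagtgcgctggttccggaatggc
RT1-Bb A_44_P552452: cagctgtgacagttgtgaaataccctagct
RT1-S3 A_44_P128151: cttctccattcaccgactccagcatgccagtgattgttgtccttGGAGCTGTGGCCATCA
RT1-S3 A_44_P454420: cgacatggtaactcgctgtctgtaactagt
RT1-M6-2 A_44_P309052: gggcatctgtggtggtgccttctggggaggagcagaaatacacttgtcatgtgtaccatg
RT1-M6-2 A_44_P426792: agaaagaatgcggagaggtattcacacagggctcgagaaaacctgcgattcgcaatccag
The capitals in RT1-S3 A_44_P128151 are shared with RT1-CE16, and the other probes shared fewer than 16 bases with any RT1 probe.

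Other class I probes are near copies of each other, which bears on how far their values are separate measurements. The pairs below shared 29, 27 and 22 bases in a row.
RT1-A2 A_44_P184753: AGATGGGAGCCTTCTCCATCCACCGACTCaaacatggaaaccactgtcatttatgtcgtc
RT1-CE2 A_44_P107372: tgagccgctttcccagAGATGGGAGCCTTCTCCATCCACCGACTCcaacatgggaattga
RT1-CE1 A_44_P513029: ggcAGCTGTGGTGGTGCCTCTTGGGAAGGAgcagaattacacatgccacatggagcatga
RT1-CE12 A_44_P313661: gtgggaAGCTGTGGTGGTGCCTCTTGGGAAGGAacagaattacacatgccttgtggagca
RT1-CE10 A_44_P389019: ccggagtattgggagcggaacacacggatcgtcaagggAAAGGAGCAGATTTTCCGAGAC
RT1-A3 A_44_P501234: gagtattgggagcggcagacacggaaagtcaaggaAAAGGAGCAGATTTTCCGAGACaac
In all, 13 of 32 class I probes and 2 of 11 class II probes shared at least 16 bases with another RT1 probe. RT1-CE7 and RT1-T24-1, which are used below, shared no such run.
RT1-CE7 A_42_P511265: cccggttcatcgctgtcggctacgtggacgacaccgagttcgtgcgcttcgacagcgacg
RT1-T24-1 A_44_P187530: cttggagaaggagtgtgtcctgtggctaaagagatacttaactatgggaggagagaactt

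The clearest RT1 differences were between Goto-Kakizaki and control rats. Over hippocampus, prefrontal cortex and striatum, in that order here and below where values come in threes, 7 of 36, 6 of 37 and 14 of 36 tested RT1 probes were called. Over all probes tested, 1.92%, 2.49% and 3.09% were called. In the hippocampus 3 RT1 probes were called higher, where 0.782% of all probes were, and 4 lower, against 1.14%. In the prefrontal cortex 4 were called higher, against 0.741% of all probes, and 2 lower, against 1.75%. In the striatum 12 were called higher, against 1.62%, and 2 lower, against 1.47%. Scaling to the 50th percentile in place of the 75th moved the split of all probes from 240 higher and 349 lower to 318 and 293 in the hippocampus, and from 497 higher and 450 lower to 397 and 538 in the striatum. With no fold required, 12, 15 and 25 RT1 probes passed the adjusted p, beside 5.11%, 8.8% and 13.8% of all probes.

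RT1-Aw2 is a classical class I heavy chain, and its 4 probes went 3 ways in Goto-Kakizaki rats. Probe A_44_P313652 read -2.42, -2.43 and -2.19 in the control hippocampus and -5.50, -5.97 and -5.81 in Goto-Kakizaki rats. The gap of 3.42 log2 units exceeded any difference between pools of a group. None of the Goto-Kakizaki hippocampus or prefrontal cortex arrays held this probe well above background, so the difference is a bound: at least 9.19-fold lower in hippocampus (adjusted p = 7e-09, limma) and at least 9.17-fold lower in prefrontal cortex (adjusted p = 3.5e-10). In the prefrontal cortex the controls read -2.71, -2.89 and -2.18 and the Goto-Kakizaki pools -6.42, -7.40 and -6.21.

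In the striatum the same probe was well above background on all Goto-Kakizaki arrays. The pools read -4.51, -4.45 and -4.73, against -2.45, -2.95 and -2.16 in controls, a change of -2.04 (SE 0.25, adjusted p = 1.1e-05) or 4.11-fold. The groups did not overlap in any region. Streptozotocin rats, which are Wistar rats as the controls are, read between -2.91 and -1.99 over all 3 regions and were not called at any site, with changes of 0.24, -0.00 and -0.15 in hippocampus, prefrontal cortex and striatum.

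The difference in Goto-Kakizaki effect between prefrontal cortex and striatum was itself called for this probe, at -2.04 log2 units (SE 0.35, adjusted p = 0.016, limma), where 0.118% of all probes were called and no other RT1 probe was. The prefrontal cortex value in it rests on arrays where the probe was not well above background. It was not called without replicate 3 of the control prefrontal cortex (-1.84) or replicate 2 of the control striatum (-1.83), and under normexp background correction it was 0.03. No RT1 probe was called for the Goto-Kakizaki effect in hippocampus against prefrontal cortex (0.19% of all probes) or against striatum (0.347%).

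Probe A_44_P196401, which lies in another stretch under the same name and was among those the study itself selected on these samples, went the other way. The study lists the transcript record of this probe among its prefrontal cortex genes upheld by real-time PCR on the same RNA. In the hippocampus the controls read 1.27, 1.37 and 1.33 and the Goto-Kakizaki pools 2.62, 2.40 and 2.44, a change of 1.16 (SE 0.18, adjusted p = 0.00023). It was 1.26 higher in the prefrontal cortex (adjusted p = 7.6e-05) and 1.48 higher in the striatum (adjusted p = 9.8e-06), with no overlap of groups. The remaining probes, A_44_P324707 and A_44_P390172, changed by between -0.00 and 0.45 in the 3 regions, were not called, and had overlapping groups in all 3. One spot of A_44_P390172, in replicate 3 of the Goto-Kakizaki prefrontal cortex, was left out as an outlier, so that group has 2 values.

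RT1-Bb, the class II beta chain, showed the same kind of split. Probe A_44_P552452 read -2.44, -1.97 and -2.02 in the control hippocampus and -8.00, -7.99 and -7.56 in Goto-Kakizaki rats. All of the latter were not well above background, which makes the level at least 11.5-fold lower (adjusted p = 5.4e-07). In the striatum it was at least 8.02-fold lower (adjusted p = 5.5e-06), with controls at -2.33, -1.60 and -3.04 and Goto-Kakizaki pools at -6.50, -6.96 and -7.90. In the prefrontal cortex 1 of 3 Goto-Kakizaki arrays was well above background, and the pools read -8.27, -6.13 and -4.83 against -2.00, -1.34 and -1.77 in controls, a change of -4.71 (SE 0.56, adjusted p = 7.5e-06). The groups did not overlap, and Goto-Kakizaki values spread widely (SD 1.74, n = 3). Streptozotocin rats read between -3.56 and -1.34.

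The other RT1-Bb probe, A_44_P500803, was not lower in Goto-Kakizaki rats in any region. Its changes were 0.23, 0.70 and 1.06 (SE 0.29 each). The last, of the striatum, was called (adjusted p = 0.018), with Goto-Kakizaki pools at -2.20, -1.75 and -2.27 and controls at -2.62, -3.90 and -2.88. That call ended under several settings: the change was 0.08 with normexp, 0.68 without replicate 2 of the controls and 0.90 without replicate 2 of the Goto-Kakizaki pools.

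Among class I names, RT1-S3, a nonclassical class I gene, divided in the same direction. Probe A_44_P454420, which the study also selected on these samples, read 0.04, 0.10 and 0.10 in the control hippocampus while the Goto-Kakizaki pools averaged -1.13 (SD 0.20, n = 3), a change of -1.20 (SE 0.21, adjusted p = 0.00099). It changed by -0.94 in the prefrontal cortex (adjusted p = 0.0066) and -0.78 in the striatum (adjusted p = 0.018), below 2-fold. Goto-Kakizaki and control groups did not overlap in any region. Probe A_44_P128151 changed by 0.23, 0.40 and 0.64, of which the last passed the adjusted p (0.017). RT1-M6-2 probe A_44_P426792 fell in the hippocampus by 1.47 (SE 0.30, adjusted p = 0.0035), from -2.21, -2.21 and -1.61 to -3.48, -3.32 and -3.63. Its change in the prefrontal cortex was -0.90 (adjusted p = 0.063). Its partner A_44_P309052 changed by 0.28, 0.48 and 0.93 over hippocampus, prefrontal cortex and striatum, and passed the adjusted p in the striatum (0.00035).

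In other names with several probes the pairs differed less, RT1-CE5 apart. Both RT1-A2 probes, for a classical class I chain, were higher in Goto-Kakizaki rats, by 0.34 to 0.99, without a call. RT1-CE4 probe A_44_P440514 was 0.81, 0.96 and 1.19 higher and was called in the striatum (adjusted p = 9.3e-06), while A_44_P440517 was 0.37, 0.57 and 0.91 higher. The study lists the transcript record of both RT1-CE4 probes among its prefrontal cortex genes upheld by real-time PCR on the same RNA. RT1-Cl probe A_44_P554925 was 1.07 higher in the striatum (adjusted p = 0.00047), and A_44_P554917 0.67. The former was 0.81 higher without replicate 2 of the Goto-Kakizaki pools and 0.94 without replicate 2 of the controls, which ended the call. For RT1-CE5, A_42_P511274 was 1.09 higher in the striatum (adjusted p = 3.1e-05), and 0.85 without replicate 2 of the controls. Its dim partner A_44_P172850 read -3.42, -5.41 and -4.46 in the control hippocampus and -5.80, -6.68 and -6.11 in Goto-Kakizaki rats, where no array was well above background, and the adjusted p was 0.058.

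Single-probe class I names held the largest increases. RT1-CE7 read -2.14, -2.56 and -1.99 in the control hippocampus and -0.86, -1.19 and -1.04 in Goto-Kakizaki rats, a change of 1.20 (SE 0.31, adjusted p = 0.023). The hippocampal call ended without replicate 1 (1.11) or 3 (1.21) of the Goto-Kakizaki pools, or replicate 1 (1.25) or 2 (1.03) of the controls. It was 1.32 higher in the prefrontal cortex (adjusted p = 0.0086), a call that ended without replicate 2 of the controls (1.14). In the striatum it was 2.22 higher (adjusted p = 5e-05), with controls at -2.01, -3.68 and -2.27 and Goto-Kakizaki pools at -0.60, 0.13 and -0.82. RT1-T24-1, a nonclassical gene whose probe the study selected on these samples, was 1.05, 1.25 and 1.68 higher in hippocampus, prefrontal cortex and striatum (adjusted p = 0.01, 0.0018 and 7.8e-05). The hippocampal call ended without replicate 2 of the Goto-Kakizaki pools (0.92) or of the controls (0.89). Its Goto-Kakizaki striatum pools read 0.38, 1.17 and 0.11 against -0.94, -1.49 and -0.95 in controls.

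RT1-CE10 had the largest increase, 2.36 in the striatum (SE 0.45, adjusted p = 0.0013), and the most uneven controls. The control pools read -2.94, -4.26 and -4.84 and the Goto-Kakizaki pools -1.99, -1.13 and -1.83, so the groups did not overlap. In the prefrontal cortex the change was 1.60 (adjusted p = 0.028), which was not called without replicate 2 or 3 of either group (1.19 to 1.61). In the hippocampus it was 1.27 and not called (adjusted p = 0.12). RT1-A3, which shares 22 bases with it, was 1.29 higher in the striatum (adjusted p = 0.028) but -0.24 with normexp correction. That call ended without replicate 2 of the Goto-Kakizaki pools (0.97), or replicate 2 (1.08) or 3 (1.31) of the controls.

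In the striatum RT1-CE12 read 2.26, 1.93 and 2.06 in controls and 3.07, 3.67 and 3.20 in Goto-Kakizaki rats. RT1-CE1 read 2.42, 1.99 and 2.26 and 3.08, 3.94 and 3.12. RT1-CE4 A_44_P440514 read -0.51, -0.73 and -0.53 and 0.51, 0.86 and 0.43. In each, replicate 2 was the highest of the Goto-Kakizaki pools and the groups lay apart. RT1-CE5 A_42_P511274 read 2.02, 1.17 and 1.76 in controls and 2.66, 2.77 and 2.80 in Goto-Kakizaki rats. RT1-Cl A_44_P554925 read 2.07, 1.68 and 2.10 and 2.74, 3.55 and 2.78. RT1-A3 read -5.21, -6.01 and -5.54 and -4.66, -3.66 and -4.58. These 3 likewise did not overlap between groups, and RT1-A3 was the dimmest of them.

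Also called higher in the striatum were RT1-CE1 by 1.16 (adjusted p = 0.00014), RT1-CE12 by 1.23 (adjusted p = 1.9e-05) and RT1-N1, a nonclassical gene, by 1.06 (adjusted p = 0.021). The RT1-CE1 call ended without replicate 2 of the Goto-Kakizaki pools (0.88), and that of RT1-N1 without it (0.89) or replicate 2 of the controls (0.81). RT1-CE1 and RT1-CE12 share 27 bases and may in part be 1 measurement. RT1-CE2, the class I probe with the highest mean signal, read 2.34, 2.40 and 2.39 in the control hippocampus and 2.79, 2.60 and 2.80 in Goto-Kakizaki rats, and was higher by 0.35, 0.55 and 0.68 without a call. RT1-M3, which presents formylated peptides, changed by 0.05, -0.03 and 0.02, each with an SE of 0.14. RT1-Ke4 changed by -0.16, 0.01 and 0.33. Of the remaining class I probes, RT1-N3 changed by 0.40, 0.77 and 0.93 and passed the adjusted p in the latter 2 regions (0.02 and 0.0041). RT1-CE16 changed by 0.21, 0.30 and 0.60 and passed the adjusted p in the striatum (0.03). RT1-CE3 changed by -0.50, -0.32 and -0.09, and the dim RT1-CE6 by -0.01, -1.14 and 0.22.

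Over the class I probes tested, the median change in Goto-Kakizaki rats was 0.35, 0.48 and 0.91 over the regions, where the medians over all probes were -0.04, 0.01 and 0.02. Of 29 probes each, 21, 22 and 26 were above 0, against 43.5%, 51.1% and 51.7% of all probes. These counts are not of separate genes, since many class I probes share sequence. Under normexp correction the median of all probes moved to -0.27 in the striatum, and the class I median there was 0.79. The striatum counts depended on single pools. Replicate 2 of the Goto-Kakizaki striatum had a median class I level of 2.50, beside 1.58 and 1.60 in the other pools. Its array had the lowest 75th percentile signal (690.3) and the lowest share of probes well above background (67.39%) of all arrays. Without it 9 RT1 probes were called, where 2.75% of all probes were, and the class I median was 0.70. Replicate 2 of the controls had values of 973.6 and 68.48%. Without that control pool 9 were called, where 2.56% of all probes were, and the median was 0.76. With every pool kept, 3.09% of all probes were called. The part of array quality in these values was not tested.

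Arrays were placed on 7 slides. Slide 2 held 1 Goto-Kakizaki and 2 control pools of hippocampus, and slide 4 held the Goto-Kakizaki striatum and 1 control pool. Within slide 2 the class I median was 0.39 and within slide 4 it was 0.71. RT1-Aw2 A_44_P313652 was called lower within each. RT1-Bb A_44_P552452 was lower in both, with adjusted p of 0.1 and 0.12 on these few arrays. In the prefrontal cortex no slide held both groups.

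Of the class II probes other than RT1-Bb none was called. RT1-Da A_44_P991532, the alpha chain of the RT1-D molecule and the class II probe with the highest mean signal, read -2.70, -2.58 and -1.34 in the control hippocampus and -1.44, -2.57 and -1.93 in Goto-Kakizaki rats, and these groups overlapped. Its changes were 0.23, -0.42 and -0.75 over the 3 regions, and those of the second RT1-Da probe 0.18, -0.25 and -0.65, with no call. RT1-Db1, the beta chain, changed by -0.33, -0.60 and -0.70 at A_44_P130513, where the striatal change passed the adjusted p (0.041) below 2-fold, and by -0.03, -0.50 and -0.19 at A_44_P130516. RT1-DOb, whose product helps regulate peptide loading, was tested only in the prefrontal cortex, with a change of -1.23 (adjusted p = 0.22). RT1-Ba, the alpha partner of RT1-Bb, was well above background on 2 arrays with 1 probe and on none with the other.

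Genes that serve class I display were called between Goto-Kakizaki and control rats in the striatum alone. Of 14 pathway genes tested, none was called in the hippocampus or prefrontal cortex, where 1.92% and 2.49% of all probes were. In the striatum 2 were called higher and 1 lower, where 1.62% and 1.47% of all probes were. Psmb8, an immunoproteasome subunit, was 1.15 higher there (adjusted p = 0.00017), and Tapbp (tapasin), which holds class I at the peptide transporter, was 1.00 higher (adjusted p = 0.00031). Tapbpl, a tapasin-related protein, changed by -1.59, from -3.19 to -4.78 (adjusted p = 0.025). Psmb8 also passed the adjusted p in hippocampus (0.81) and prefrontal cortex (0.77), and Tapbp in prefrontal cortex (0.85), below 2-fold. B2m, the shared light chain, changed by 0.12, 0.02 and 0.17. The class II list had no call among its 11 to 12 tested genes, and Cd74, the invariant chain, changed by -0.07, -0.00 and -0.54.

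Of 15 genes of the interferon response, which induces class I genes in many cells, 5, 6 and 7 were called higher over the regions in Goto-Kakizaki rats, and 0 lower. Over all probes 0.782%, 0.741% and 1.62% were called higher and 1.14%, 1.75% and 1.47% lower. Mx2, an antiviral GTPase, was 2.07, 1.90 and 2.05 higher, and Irf7, a transcription factor of that response, was 1.45, 2.09 and 2.31 higher. Of genes without an RT1 name in the RefSeq interval between the outermost RT1 entries, 90 to 93 were tested. Beside the same shares of all probes, 0, 0 and 5 of them were called higher, with 1, 0 and 1 lower. Psmb8, counted above among class I pathway genes, is also among the striatal 5. The largest change in the interval was that of Btnl3, a butyrophilin-like gene, at least 3.59-fold lower in the hippocampus (adjusted p = 5.2e-05). Complement C2 was 1.21 higher and the collagen gene Col11a2 1.40 higher in the striatum. Medians over this interval were -0.05, 0.09 and 0.14.

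Cell type markers moved with these comparisons in part. The summed level of 11 microglial genes ranged from 6.01 to 6.67 in the Goto-Kakizaki striatum against 5.56 to 5.71 in controls, and from 5.88 to 6.17 against 5.49 to 5.62 in the prefrontal cortex, where the groups did not overlap either. In the hippocampus they ranged from 5.37 to 5.49 and from 5.04 to 5.40. Such a sum weighs its brightest genes most, here C1qb, at 5.14 in the Goto-Kakizaki striatum. Gene by gene, 4, 6 and 8 of the 11 changes were above 0 over the regions, with medians of -0.06, 0.01 and 0.46. In the striatum C1qc (1.15) and Cd68 (1.08) were called higher, and in the hippocampus Itgam (-1.71) and Tmem119 (-1.29) lower. Of 2 red cell genes, the globin Hbb and the haem synthesis enzyme Alas2, both were called higher in the Goto-Kakizaki striatum (1.43 and 1.31) and Alas2 in the prefrontal cortex (1.10). Their summed level was 1.68 to 2.66 in the Goto-Kakizaki striatum against 0.64 to 0.99 in controls, and 0.99 to 1.56 against 0.52 to 0.61 in the hippocampus. Of 4 genes of dendritic cells and border macrophages, Lyve1 was called higher in all 3 regions (1.38, 1.01 and 2.04), and Mrc1, Cd163 and Flt3 in none. The sum of these 4 ranged from -0.91 to -0.90 against -1.35 to -1.21 in the hippocampus and from -1.21 to -0.58 against -1.90 to -1.49 in the striatum, without overlap, and from -0.65 to -0.41 against -0.61 to -0.49 in the prefrontal cortex. None of 5 brain endothelial genes was called. Their sum lay above that of controls in prefrontal cortex (3.84 to 3.97 against 3.60 to 3.67) and striatum (3.92 to 4.71 against 3.84 to 3.91). For hippocampus it lay below (2.95 to 3.11 against 3.15 to 3.22). Taken singly, 0, 2 and 2 of these 5 genes had changes above 0 over the regions, with medians of -0.35, -0.01 and -0.11. Cldn5, the brightest of them, changed by -0.02, 0.42 and 0.45. The sum of 6 T cell genes ranged from -0.63 to -0.26 in the Goto-Kakizaki striatum and from -2.08 to -0.76 in controls. It overlapped in hippocampus (-1.59 to -1.36 against -1.64 to -1.32) and prefrontal cortex (-1.54 to -1.06 against -1.74 to -0.73). Of these genes, Cd2 and Cd8a were well above background on no array. Cd3d, well above background on all 27, changed by -0.29, 0.01 and 0.77 without a call. Cd3g was called higher in hippocampus (1.28) and striatum (1.56), and Cd4 was at least 1.28-fold higher in prefrontal cortex and at least 1.59-fold in striatum. Of 3 B cell genes Ms4a1 was on no array. Choroid plexus genes summed to 4.42 to 7.31 in the Goto-Kakizaki hippocampus, 1.74 to 1.95 after streptozotocin and up to 6.99 in controls. The part of these cells in the RT1 values was not tested.

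Streptozotocin rats share the Wistar background of the controls, so their probes face the same stock of RT1 alleles as far as the labels tell. No RT1 probe was called in any region by limma, where 0.639%, 0.98% and 0.866% of all probes were called. At an unadjusted p under 0.05 the counts were 15 of 36, 3 of 37 and 21 of 36, where 14.2%, 15.4% and 18.1% of all probes passed it, so that the prefrontal share lay below that of all probes. By the methods' t-test with its 2-fold threshold they were 0, 0 and 1 unadjusted and 0 in all regions after adjustment. With no fold required, RT1-A2 A_44_P296155 alone passed the adjusted p in the hippocampus (0.85, adjusted p = 0.018). None did so in the prefrontal cortex, and 5 did in the striatum. Those 5 were RT1-CE5 A_42_P511274 (0.84), RT1-N3 (0.83), RT1-Aw2 A_44_P196401 (0.72), RT1-CE12 (0.65) and RT1-CE4 A_44_P440514 (0.65). All 6 values lay below 2-fold.

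Class I changes after streptozotocin were mostly upward, with 26, 22 and 25 of 29 tested probes above 0. Their medians were 0.41, 0.20 and 0.46, with -0.01, 0.01 and -0.03 over all probes. Above 2-fold but not past the adjusted p were RT1-CE10 (1.33, adjusted p = 0.11) and RT1-A3 (1.32, adjusted p = 0.061) in the striatum, where RT1-M10-1 was not well above background on any streptozotocin array. The lowest class I change in the striatum, -1.79, was larger than either increase and did not pass the adjusted p. It was 1 of 4 striatal class I changes below 0. Of all RT1 probes tested, 17, 13 and 13 had every streptozotocin pool above every control pool, against 16.5%, 15.3% and 11.5% of all probes. RT1-A2 A_44_P296155 shows the size: hippocampal controls read 0.98, 1.04 and 0.87 and streptozotocin pools 1.63, 2.10 and 1.73, without overlap. In the prefrontal cortex it read 1.21, 1.25 and 1.27 against 1.76, 1.78 and 1.64 (0.48, adjusted p = 0.2). The median within slides 5, 6 and 7, which each held a control and a streptozotocin pool of prefrontal cortex, was 0.25, 0.11 and 0.21. In the hippocampus and the striatum no slide held both groups, so no value within a slide exists there.

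For class II, changes after streptozotocin lay between -0.90 and -0.35 in the hippocampus and between -0.89 and 0.17 in the striatum. In the prefrontal cortex they lay between -1.01 and 0.34, with 5 of 7 above 0 and a median of 0.11. None passed the adjusted p in any region. RT1-Da A_44_P991532 read -3.18, -2.36 and -2.89 in the streptozotocin striatum and -2.30, -1.52 and -1.96 in controls, a change of -0.89 (adjusted p = 0.26). Cd74 changed by -1.06 in the hippocampus (adjusted p = 0.1). None of the 14 class I pathway genes was called, and B2m changed by 0.13, 0.15 and 0.22. Of 15 interferon response genes, 0 were called in hippocampus and prefrontal cortex, where 0.639% and 0.98% of all probes were. Their hippocampal changes ran from -2.07 to 1.15. In the striatum 4 were called higher and 0 lower, where 0.866% of all probes were called. Among these 4 were Oas1a (1.32), which makes a signal for RNA breakdown, and the ubiquitin-like Isg15 (1.27). Microglial genes summed to 5.89 to 6.09 in this striatum, above its controls, with 8 of 11 changes above 0 (median 0.40) and none called. Of the 4 genes of dendritic cells and border macrophages, Lyve1 (1.27) and Mrc1 (1.24) were called higher there, with a sum of -0.72 to -0.55 against -1.90 to -1.49. In the hippocampus that sum was -0.81 to -0.65 against -1.35 to -1.21 with none called. The part of these cells was not tested.

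Set directly against streptozotocin rats, Goto-Kakizaki rats had 5, 5 and 6 RT1 probes called over the regions, where 2.76%, 3.53% and 4.94% of all probes were called. All 5 in the hippocampus were lower, namely RT1-Bb A_44_P552452, RT1-Aw2 A_44_P313652, RT1-S3 A_44_P454420, RT1-M6-2 A_44_P426792 and RT1-CE5 A_44_P172850. The first 3 were lower in the other regions too, where RT1-CE7 and RT1-T24-1 were higher. RT1-Bb A_44_P552452 was at least 6.16-fold lower in the hippocampus (adjusted p = 5.3e-06) and at least 5.74-fold lower in the striatum, and RT1-Aw2 A_44_P313652 at least 10.8-fold lower in the hippocampus (adjusted p = 2.8e-09). RT1-S3 A_44_P454420 changed by -1.78, -1.14 and -1.11. RT1-T24-1 was 1.20 higher in the prefrontal cortex (adjusted p = 0.002) and 1.54 in the striatum (adjusted p = 0.00021). RT1-M10-1, of a family known from the vomeronasal organ, was at least 1.62-fold higher in the striatum (adjusted p = 0.039), and was well above background on 6 of 27 arrays in all. That call, and the one of RT1-CE5 A_44_P172850, ended whichever of the 6 pools was left out (adjusted p of 0.054 to 0.11 and 0.059 to 0.16). RT1-S3 A_44_P454420 fell below 2-fold in the striatum without replicate 3 of the Goto-Kakizaki pools (-0.92) or replicate 2 of the streptozotocin pools (-0.90). RT1-Aw2 A_44_P196401, though called against controls, was not called here. All 5 choroid plexus genes were called higher in the Goto-Kakizaki hippocampus than after streptozotocin, with a median change of 2.85. Their part in the RT1 values was not tested. No slide held Goto-Kakizaki and streptozotocin pools of the same region.

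Few RT1 probes were called between regions of control rats. None was called between prefrontal cortex and hippocampus, where 5.14% of all probes were, with 2 called between striatum and hippocampus (8.97%) and 1 between striatum and prefrontal cortex (8.79%). RT1-M6-2 A_44_P426792 was lowest in the striatum. It read -2.21, -2.21 and -1.61 in hippocampus, -2.43, -2.59 and -2.27 in prefrontal cortex and -5.31, -5.57 and -6.12 in striatum, where 1 of 3 arrays was well above background. The striatum differed from the hippocampus by -3.65 (SE 0.30, adjusted p = 5.1e-09) and from the prefrontal cortex by -3.24 (adjusted p = 3.6e-08), and streptozotocin rats had the same order, at means of -1.93, -2.58 and -6.23. Its partner A_44_P309052 had control means of 2.32, 2.42 and 2.12. RT1-Bb A_44_P500803 differed by -1.06 between striatum and hippocampus (adjusted p = 0.0083), but by 0.03 with normexp correction, and by -0.67 without replicate 2 of the striatum. The median class I levels of control pools lay between 1.13 and 1.21 for hippocampus, 1.40 and 1.47 for prefrontal cortex and 1.22 and 1.33 for striatum. No slide held control hippocampus together with another control region. Slides 5 and 6 each held a control pool of striatum and of prefrontal cortex. Within them RT1-M6-2 A_44_P426792 differed by -2.98 and -3.85, striatum less prefrontal cortex.

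Promoters of the RT1 genes, the 250 bases before and 50 after the start in RefSeq on the GRCr8 build, a Brown Norway genome, were searched for the Y box (CTGATTGG, both strands), an element of class I and class II promoters. It was found in 19 of 42 RT1 promoters, against 3.5% of all 33469. The interferon-stimulated element, a pair of TTTC runs with a short gap, was searched on both strands and found in 3 of 42, those of RT1-S2, RT1-N3 and RT1-S3, against 3.92% of all, and in 0 of 8 class II promoters. Of 8 class II promoters 6 held the Y box, all but RT1-DOb and RT1-DMa, as did 12 of 31 class I promoters. A pair of the upstream sequences are shown for a class II and a class I gene whose probes are described above, with the Y box in capitals.
RT1-Bb, chr20:4604119-4604368, minus strand: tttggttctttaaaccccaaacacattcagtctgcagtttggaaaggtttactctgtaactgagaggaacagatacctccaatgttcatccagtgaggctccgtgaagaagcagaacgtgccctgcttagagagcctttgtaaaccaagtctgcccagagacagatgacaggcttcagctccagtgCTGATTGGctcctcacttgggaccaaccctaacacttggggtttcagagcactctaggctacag
RT1-A2, chr20:4872621-4872870, plus strand: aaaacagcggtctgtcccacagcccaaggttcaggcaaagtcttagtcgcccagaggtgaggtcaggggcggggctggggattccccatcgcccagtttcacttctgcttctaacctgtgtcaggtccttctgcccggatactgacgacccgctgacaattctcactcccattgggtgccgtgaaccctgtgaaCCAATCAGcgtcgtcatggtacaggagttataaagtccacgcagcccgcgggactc
A match is a run of letters in the reference strain and says nothing of these rats' alleles.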

How the data were processed

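Total RNA from 3 pools per group was labelled with Cy3 and hybridised to 1-colour Agilent rat arrays. The deposited intensity values are the processed signals of Agilent Feature Extraction 9.1, which per the file headers subtracted a spatially fitted background and corrected a signal gradient; mean and background intensities and spot flags come from the same files. The deposited value table held the same values. Here log2 of the processed signal minus the array's 75th percentile was used, and 2635 outlier values over all arrays were left out. Tests took probes well above background on 2 or more of the 3 arrays in any animal group of the region, also one outside the comparison. Comparisons between regions took probes that passed in either region, and differences in effect those that passed in both. limma 3.58.1 in R 4.3.3 fitted 9 group means over all 27 arrays with 18 residual degrees of freedom. A fold change was called at an adjusted p under 0.05 and 2-fold; bounds for dim groups used each array's lowest signal among probes well above background, or the probe's own signal where higher. The number of arrays limits the precision. The p-values measure the spread between pools.

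The RT1 probes, gene lists and rules for naming were chosen with earlier results of these data known. By rule the text names the 14 called RT1 probes with the largest changes, further probes of their gene names, the brightest of each class, those the study lists, and up to 4 called genes from a list, or its 2 lowest p-values where none was called. B2m, RT1-M3, RT1-N3, RT1-CE3, RT1-CE6, RT1-CE16 and the marker genes were named after their values were seen. Probes were named from the scanner files, and 37 of 44 RT1 probes matched RefSeq, 31 by accession and 6 by symbol. Replicate numbers were checked for pairing by the correlation of deviations from group means: every pair passed 0.1 for streptozotocin and control prefrontal cortex alone (0.494, 0.475 and 0.717, on shared slides). Between control striatum and prefrontal cortex, replicates 2 and 3, which shared slides, gave 0.551 and 0.6 and replicate 1, on different slides, -0.188. Alternatives were other scalings, normexp, filters, models, the methods' t-test, slides and leaving out each pool. The analysis was tested on simulated data. Tables were made in Python 3.11.15 with pandas 2.3.3.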

Additional observations from a re-analysis of the deposited data

Results flagged for a closer look

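The change of RT1-Aw2 A_44_P313652 from control to Goto-Kakizaki rats differed between prefrontal cortex and striatum by -2.04 log2 units in limma's test of that difference (adjusted p = 0.016). It is singled out because the same contrast gave unequal changes in 2 regions. The difference was not called with normexp, with only these regions or groups fitted, or when either of 2 control pools was left out. The probe was not well above background in the Goto-Kakizaki prefrontal cortex, so the change there is a bound of at least 9.17-fold, beside 4.11-fold in the striatum. No reason for the difference was tested.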

How the results depend on the processing

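Counts of called RT1 probes are given here for Goto-Kakizaki against control, unless another comparison is named, as hippocampus, prefrontal cortex and striatum. Against the reported 7, 6 and 14, the methods' t-test gave 3, 0 and 0 after adjustment and 7, 5 and 13 before it, and no fold threshold gave 12, 15 and 25. Normexp gave 4 in the hippocampus. In the striatum array weights gave 8, a fit to the region alone 9 and to the groups alone 2. Within slides 2 and 4 the count was 1 in each region they covered. Leaving out a pool gave 6 to 7, 4 to 8 and 9 to 18, with 9 in the striatum without replicate 2 of either group.

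For streptozotocin against control, where 0 were called, no fold threshold gave 1 in the hippocampus and 5 in the striatum. In the striatum normexp gave 1, array weights 3 and the unadjusted t-test 1. Leaving out a pool gave 0 to 3 there, with 3 without control replicate 1 and 1 without streptozotocin replicate 2, and 0 elsewhere. For Goto-Kakizaki against streptozotocin (5, 5 and 6), normexp gave 3 in hippocampus and in striatum, no fold threshold 11 in prefrontal cortex and 14 in striatum, array weights 9 in prefrontal cortex, and the adjusted t-test 1, 0 and 0. Leaving out a pool gave 4 to 5, 5 to 6 and 4 to 5.

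Between control regions, prefrontal cortex against hippocampus (0) gave 1 without slide 6, an alternative chosen after seeing the data, and 0 to 1 without a pool, the 1 without prefrontal cortex replicate 3. Striatum against hippocampus (2) gave 0 with normexp and 1 with only these groups and with either t-test. Striatum against prefrontal cortex (1) gave 0 with normexp and the adjusted t-test and 2 with array weights and without slide 6. For the Goto-Kakizaki effect between regions, array weights gave 1 for hippocampus against prefrontal cortex and against striatum, where leaving out a pool gave 0 to 2, with 2 without control striatum replicate 1. Prefrontal cortex against striatum (1) gave 0 with normexp and with only these regions or groups, and 0 to 1 without a pool, the 0 without prefrontal cortex control replicate 3 or striatum control replicate 2.

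The replicate block, the pairing of equal replicate numbers, gave 7, 6 and 13 and changed no other count by over 1.5 times; RT1-A3 lost its striatal call (adjusted p = 0.051). Slide as a random block, filters, the 50th percentile and quantile scaling stayed within 1.5 times of every count. Of 47 calls of a probe in a comparison, 2 held under every alternative. Values turned sign only with normexp: RT1-A3 in the striatum of Goto-Kakizaki rats was -0.24, RT1-Bb A_44_P500803 between control striatum and hippocampus 0.03, and the difference in effect for RT1-Aw2 A_44_P313652 0.03. Normexp, with an offset of 50, compresses dim probes and moved the median of all probes by up to 0.40. The cause of the other changes was not tested. The t-test was not run for differences in effect between regions. Dim probes limit what can be said: where a group was not well above background only a bound is known.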

Other observations

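Pools with the same number held the same order in all 3 regions for some RT1 probes. In control rats 4 of the 33 RT1 probes that were well above background on all 9 control arrays did so (RT1-CE10, RT1-CE16, RT1-N3 and RT1-Aw2 A_44_P313652), or 12.1%, against 3.47% of 25513 probes. RT1-CE10 read -2.79, -3.48 and -4.37 in the hippocampus of control pools 1, 2 and 3, -2.80, -3.78 and -4.52 in the prefrontal cortex, and -2.94, -4.26 and -4.84 in the striatum, and no other RT1 probe had a larger SD in the controls of any region among those well above background on all 27 arrays (0.80, 0.86 and 0.97). In Goto-Kakizaki rats 1 of 28 RT1 probes kept such an order (2.62% of all probes), with RT1-CE10 SDs of 0.13, 0.12 and 0.46, and in streptozotocin rats 0 of 31 (2.96%). The labels do not say whether pools of the same number came from the same rats, and the counts were made after seeing the values.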
